A study of Rattus norvegicus with 40 samples.

Results

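DNA methylation was compared between blood T cells of Dahl salt-sensitive rats at 10 weeks of age and blood T cells of younger rats of the same colony at 7 weeks. Every row of the deposited table of that comparison was taken, which gave 32843 regions, of which 17195 carried a gene name, for 7152 genes in all. The table was made from 8 of the 40 libraries of the series. The 10-week group held 4 pools of 3 SS/JrHsdMcwi rats (SS/MCW, called MCW here) fed LS chow. The 7-week group held 4 further pools of 3 MCW rats on LS chow. LS and HS are read here as low and high salt. Other 10-week blood groups served for comparison only: MCW rats on HS chow for 3 weeks, and SS/JrHsdMcwiCrl rats (SS/CRL, called CRL here) on LS chow or on HS chow for 3 weeks. T cells from the kidneys of MCW rats on LS chow at 10 and 7 weeks were the other tissue. All groups share the background of the Dahl SS rat, an inbred line that becomes hypertensive when fed much salt. The labels name circulating T cells without saying how they were isolated. They assign no library to a sequencing lane, so that a lane effect and age cannot be told apart.

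In mammals the methyl mark is placed on cytosines followed by guanine (CpG sites), and Dnmt3a and Dnmt3b lay it down, Dnmt1 copies it when a cell divides, and the Tet enzymes oxidise it towards removal. CpG-rich promoters are mostly free of it and gene bodies mostly carry it, while control regions of imprinted genes carry it on the allele of a single parent. Reduced representation bisulfite sequencing reads the CpG-rich share of the genome that the enzyme MspI releases by cutting at CCGG. A region's level is the share of methylated CpG readings in a mixture of cells, so that a shift in the mix of T cell subsets and a change within cells cannot be told apart.

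The RefSeq promoters of genes whose promoter regions differed between the ages are given here as the 250 bases before each start in GRCr8, on the plus strand, with CpG sites in capitals. Trappc6a had the largest called promoter difference, Kti12 (chosen after its values were seen) was almost unmethylated at 7 weeks, and Gnas had called promoter regions in both directions. The called regions have positions in the older build rn5, and whether they lie inside these windows was not tested.
Trappc6a promoter, chr1:88286328-88286577: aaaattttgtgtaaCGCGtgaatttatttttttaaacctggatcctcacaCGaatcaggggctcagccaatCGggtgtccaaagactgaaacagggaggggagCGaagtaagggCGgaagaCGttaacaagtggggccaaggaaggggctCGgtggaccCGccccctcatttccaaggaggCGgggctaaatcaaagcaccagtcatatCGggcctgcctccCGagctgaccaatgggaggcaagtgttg
Kti12 promoter, chr5:128829501-128829750: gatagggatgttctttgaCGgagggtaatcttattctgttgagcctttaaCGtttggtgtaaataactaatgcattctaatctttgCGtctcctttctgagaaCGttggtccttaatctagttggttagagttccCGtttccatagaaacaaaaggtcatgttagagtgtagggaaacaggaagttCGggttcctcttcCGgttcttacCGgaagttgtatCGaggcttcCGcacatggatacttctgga
Gnas promoter, chr3:183489398-183489647: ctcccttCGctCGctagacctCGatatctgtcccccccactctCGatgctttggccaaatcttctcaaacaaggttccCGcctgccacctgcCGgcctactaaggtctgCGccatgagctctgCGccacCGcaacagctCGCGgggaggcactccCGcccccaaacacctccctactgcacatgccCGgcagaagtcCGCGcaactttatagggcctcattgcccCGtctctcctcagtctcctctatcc
Gnas promoter, chr3:183502993-183503242: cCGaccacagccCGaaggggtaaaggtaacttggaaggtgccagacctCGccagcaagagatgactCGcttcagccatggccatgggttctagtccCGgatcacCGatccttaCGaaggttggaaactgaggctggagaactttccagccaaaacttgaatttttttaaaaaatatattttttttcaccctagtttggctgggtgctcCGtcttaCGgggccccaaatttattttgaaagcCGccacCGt
Gnas promoter, chr3:183537089-183537338: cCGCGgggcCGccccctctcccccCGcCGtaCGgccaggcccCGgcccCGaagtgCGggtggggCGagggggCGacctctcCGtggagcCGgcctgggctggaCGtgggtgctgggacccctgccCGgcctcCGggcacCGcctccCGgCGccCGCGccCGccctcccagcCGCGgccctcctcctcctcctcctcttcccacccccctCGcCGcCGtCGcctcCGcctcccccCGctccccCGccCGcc
These windows held 12 CpG sites for Trappc6a, 10 for Kti12, and 16, 11 and 32 for the Gnas windows in the order shown. The median over 33469 RefSeq promoters of the same length was 5 CpG sites, and 35.9% of them held at least 10. The MspI motif CCGG, which reads the same on both strands, was found 2 times in the Kti12 window, 0 times in that of Trappc6a, and 2, 1 and 5 times in those of Gnas. It was found in 46.2% of all promoters.

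Blood T cell methylation as a whole was nearly level between the ages. The mean over all regions was 39.1% at 10 weeks and 39.0% at 7 weeks, and the median was 27.9% at 10 weeks and 26.4% at 7 weeks. In the authors' deposited table, the median difference was 0 percentage points, its 5th percentile was -4.82 points and its 95th was 5.36. By the same column 46.6% of regions were higher at 10 weeks, 45.8% were lower and 7.62% were equal. These values are the authors' levels per group, and the table has neither values of single pools nor reads. Depth is therefore unknown, and no spread or interval can be given for any level.

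Regions count as called here if the adjusted Mann-Whitney p of the authors fell under 0.05 with a difference of 10 percentage points or more. By that rule 218 regions were called, 0.664% of those tested. Of these, 123 (0.375%) were higher and 95 (0.289%) were lower at 10 weeks. With regions that repeat the values of another position counted once, 115 were higher and 90 lower. The median size of a called difference in the authors' deposited table was 13.3 points and the largest was 32.9, and 16 regions differed by 20 points or more. The called regions were short, with a median of 5 CpG sites, the fewest in the table, and 37 held 10 or more. At least 1 called region was found for 95 genes, which is 1.33% of genes tested (59 higher, 0.825%; 39 lower, 0.545%). When the p-values were adjusted again over regions with at least 10% methylation in 1 of the ages, 135 regions were called, 76 higher and 59 lower. By the authors' q-value, a column apart from the adjusted p, 12 regions were called (0.0365%), 9 higher and 3 lower.

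**Figure D1:**
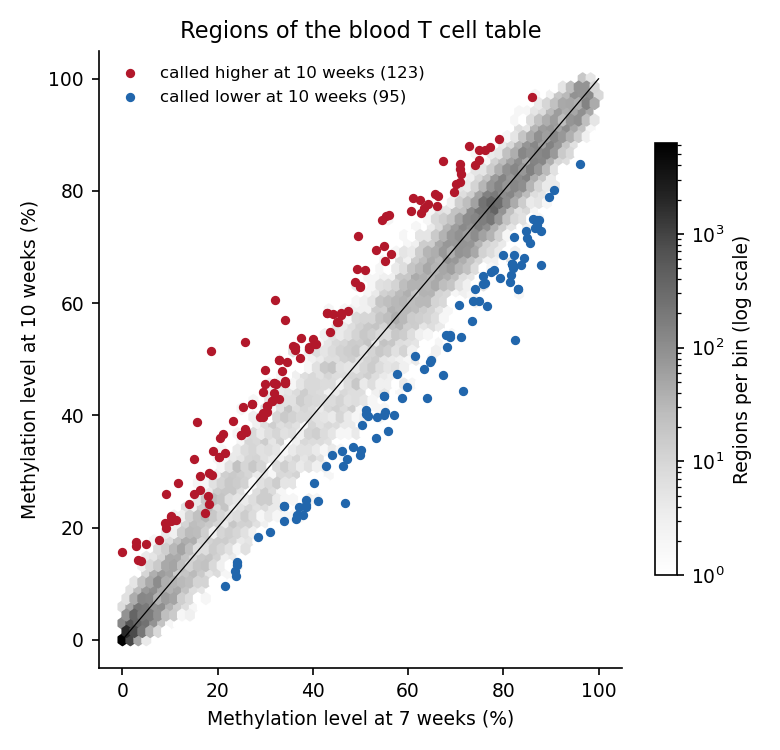
Methylation level at 10 weeks against 7 weeks in blood T cells of MCW rats on LS chow, in percent, for 32843 regions (grey bins, darker for more regions on a log scale), with regions called higher in red and lower in blue. The 123 regions called higher and 95 called lower lie along both sides of the diagonal, mostly at middle levels.

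The adjusted p alone passed in far more regions, most of them almost unmethylated. It was under 0.05 in 5404 regions (16.5%), of which 1952 (5.94%) were higher, 1168 (3.56%) were lower and 2284 had a difference of 0 in the authors' deposited table. The median size of the difference among them was 0.123 points, and 3942 of them had a mean level under 1%. The smallest adjusted p in the authors' deposited table was 6.92e-12, whereas ranks of 4 pools on each side allow an exact p of 0.0286 at the lowest. The unit of the authors' test is not stated, but it cannot have been the 4 pools of a group alone, and the p-values are read here as speaking of these pools.

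Called regions sat at middle levels. None was called among 12666 regions with a mean level of the ages up to 5%, nor among 941 above 95%. Between 20% and 40% methylation, 44 regions were higher (3.02%) and 20 lower (1.37%) at 10 weeks. Between 40% and 60%, 31 were higher (1.73%) and 25 lower (1.40%). Between 60% and 80%, 25 were higher (0.333%) and 36 lower (0.479%). A difference of 10 points cannot be reached in both directions at the ends of the scale, so these shares were set in part by the rule.

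Promoters, which were mostly unmethylated, had the fewest calls. Of 10192 promoter regions, with a median level of 0.842% at 10 weeks and 0.831% at 7 weeks, 25 were higher (0.245%) and 13 lower (0.128%). Of 7003 gene body regions, with medians of 74.8% at both ages, 40 were higher (0.571%) and 29 lower (0.414%). Of 15648 intergenic regions, with medians of 66.03% at 10 weeks and 66.08% at 7 weeks, 58 were higher (0.371%) and 53 lower (0.339%). In each class the regions called higher outnumbered those called lower, and this was not tested.

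**Figure D2:**
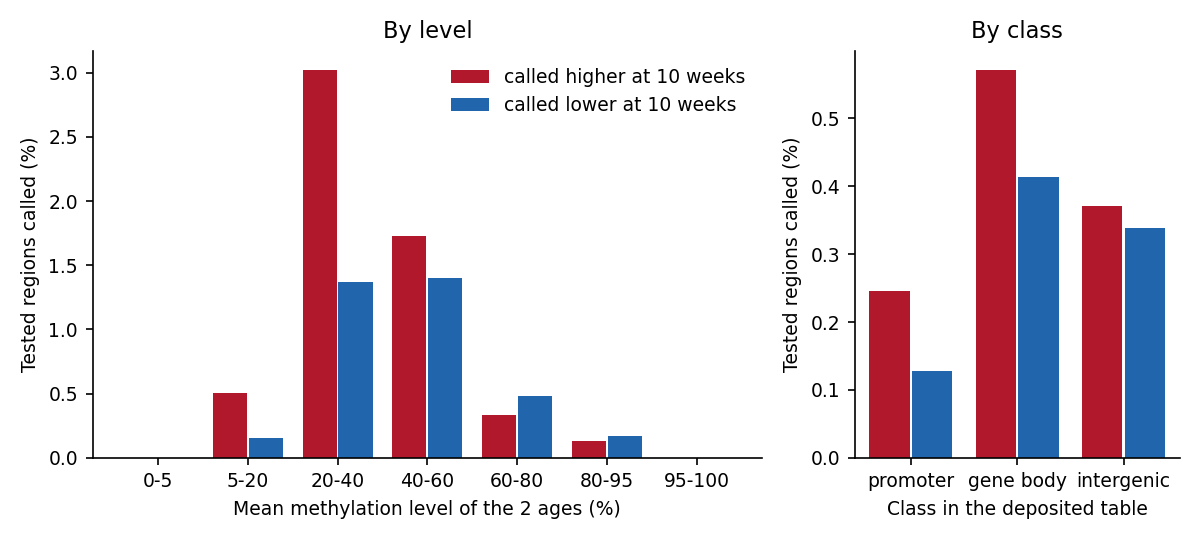
Percent of tested regions called higher (red) or lower (blue) at 10 weeks, by the mean methylation level of the ages in percent (left) and by class in the deposited table (right). The bars peak between 20% and 40% methylation, at 3.02% higher and 1.37% lower, and promoters show the lowest shares of the classes.

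The largest increase with a gene was in the gene body of Neurl1b, which encodes an E3 ubiquitin ligase that acts on Notch ligands. The region held 63 CpG sites at chr10:16947787-16948185 (rn5). Its level was 60.5% at 10 weeks and 32.1% at 7 weeks. The adjusted p in the authors' deposited table was 7.17e-12 and their q was 1.2e-35, the smallest q of the called regions. The other 10-week blood groups lay near the 10-week level, at 56.3% in MCW HS, 62.8% in CRL LS and 58.1% in CRL HS, with all 4 groups of 10 weeks above the 7-week group. In kidney T cells the level was 43.2% at 10 weeks and 32.2% at 7 weeks.

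Shank3, Ctdspl, Mn1, Dclre1a and Mgarp held further large increases. Shank3, a scaffold of the postsynaptic density, had 57.0% at 10 weeks and 34.2% at 7 weeks in 5 CpG sites at chr7:130183297-130183318. A second Shank3 region nearby, chr7:130183084-130183099, had the opposite direction, with 9.67% at 10 weeks and 21.6% at 7 weeks. Ctdspl, a small phosphatase that acts on the tail of RNA polymerase II, had 71.9% at 10 weeks and 49.4% at 7 weeks. In the tables that compare tissues, the same libraries were divided into regions anew. There the match of the Ctdspl region had a smaller gap, with 62.7% at 10 weeks and 56.9% at 7 weeks. Mn1, a transcriptional coregulator, had 74.8% at 10 weeks and 54.4% at 7 weeks. In Dclre1a, a nuclease for repair of DNA crosslinks, the level was 75.5% at 10 weeks and 55.4% at 7 weeks, and MCW HS lay below both at 45.7%. Mgarp, a protein of mitochondria, had 75.8% at 10 weeks and 56.0% at 7 weeks. In the authors' deposited table these regions had a q of 1, so that they passed by the adjusted p alone.

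Dact3, an inhibitor of Wnt signalling that binds Dishevelled, had 2 called regions of 8 tested. One had 32.2% at 10 weeks and 15.1% at 7 weeks, and the other had 19.9% at 10 weeks and 9.12% at 7 weeks. The first of these did not keep its direction where the same libraries were divided into regions anew, in the tables that compare tissues: there it had 35.0% at 10 weeks and 39.7% at 7 weeks. Arhgap9, a GTPase activating protein of blood cells, behaved in the same way. Its 22 CpG sites had 39.1% at 10 weeks and 23.3% at 7 weeks, against 34.9% at 10 weeks and 53.9% at 7 weeks in the tissue tables. Those tables draw other region borders, and the 2 ages come from separate tables.

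Transcription factor genes Nfix and Zfpm1 each held several called regions. Nfix, of the nuclear factor I family, had 40.4% at 10 weeks and 29.5% at 7 weeks in 21 CpG sites, and 83.0% at 10 weeks and 71.1% at 7 weeks in a neighbouring region. Another Nfix region was lower, with 70.7% at 10 weeks and 85.5% at 7 weeks, and in the tissue tables it had 78.4% at 10 weeks and 77.0% at 7 weeks. Zfpm1, the cofactor of GATA factors also called FOG1, had 65.8% at 10 weeks and 50.9% at 7 weeks in 1 region and 77.8% at 10 weeks and 64.1% at 7 weeks in another. In the tissue tables both Zfpm1 regions shared a match, with 70.5% at 10 weeks and 68.5% at 7 weeks. Tnfaip2, induced by tumour necrosis factor and named here after its q was seen, had 69.5% at 10 weeks and 53.2% at 7 weeks in 17 CpG sites, with q 1.2e-04 in the authors' deposited table.

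Called promoter regions numbered 38. Trappc6a, a subunit of the TRAPP complex that tethers vesicles, had the largest difference, with 53.1% at 10 weeks and 25.7% at 7 weeks in 5 CpG sites at chr1:81681958-81682006 (rn5). MCW HS had 37.9%, between the ages. The Kti12 promoter region at chr5:132304809-132304898, of a gene tied to tRNA modification, had 15.7% at 10 weeks and 1.15e-05% at 7 weeks in 13 CpG sites. In kidney it had 0.197% at 10 weeks and 2.5e-05% at 7 weeks. The Fbxl14 promoter region, of an F-box protein of ubiquitin ligases and also named after its values were seen, had 17.4% at 10 weeks, 4.55% in MCW HS, 27.7% in CRL LS, 0.827% in CRL HS and 2.81% at 7 weeks. Both 10-week LS groups thus lay above both HS groups and the 7-week group, and this order was not tested. Its q of 1.8e-04 in the authors' deposited table was the only promoter q under 0.05 among called regions. Promoters of Hspa2, a heat shock protein, and Pmaip1, which promotes cell death, were called higher, and that of Piwil1, a small RNA binding protein of germ cells, was called lower. Hspa2 had 20.9% at 10 weeks and 9.03% at 7 weeks, Pmaip1 63.0% at 10 weeks and 49.9% at 7 weeks, and Piwil1 63.5% at 10 weeks and 75.8% at 7 weeks. These 3 genes were picked after their values were seen.

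Decreases with a gene were led by gene body regions. Dirc2, a transporter of the lysosomal membrane now named Slc49a4, had 24.3% at 10 weeks and 46.7% at 7 weeks. Sod3, the extracellular superoxide dismutase, had 66.8% at 10 weeks and 87.9% at 7 weeks at chr14:61072285-61072360, while CRL LS had 92.0% and CRL HS 88.5%. It was the only gene of 29 tested in the list of salt, renin-angiotensin and oxidant genes to be called, against 1.33% of all genes. Tril, which works with Toll-like receptor 4, had 35.9% at 10 weeks and 53.2% at 7 weeks. Hcn2, a pacemaker channel, had 54.0% at 10 weeks and 71.0% at 7 weeks, against 65.4% at 10 weeks and 71.4% at 7 weeks in the tissue tables. Sh3pxd2a, an adaptor of podosomes, had 32.98% at 10 weeks and 49.81% at 7 weeks, and MCW HS matched the 10-week level at 32.3%. Disc1, a scaffold protein studied in the brain, had 68.0% at 10 weeks and 84.4% at 7 weeks, and Begain, a partner of synaptic scaffolds, had 56.9% at 10 weeks and 73.3% at 7 weeks.

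Among the decreases with a gene, those with the most CpG sites included Cldn4. This tight junction gene had 40.2% at 10 weeks and 51.3% at 7 weeks in 21 sites of its promoter. Lingo3 had 39.9% at 10 weeks and 51.6% at 7 weeks, with MCW HS at 39.4% and both CRL groups above the 7-week level, at 55.3% on LS and 53.3% on HS. Gal3st1, a sulfotransferase that makes sulfatide, had 31.0% at 10 weeks and 46.4% at 7 weeks, and Elfn1, a synaptic membrane protein, had 48.4% at 10 weeks and 63.4% at 7 weeks.

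Some named regions rest on rows whose position is uncertain. Gpd1, glycerol-3-phosphate dehydrogenase, had 43.0% at 10 weeks and 64.0% at 7 weeks in 1 region and 54.2% at 10 weeks and 68.7% at 7 weeks in the next, both on the X chromosome in the table, whereas RefSeq places the gene on another chromosome. Cyp4f5, a cytochrome P450, had 62.6% at 10 weeks and 83.1% at 7 weeks at 2 positions with identical values. Vom2r4, a vomeronasal receptor, had 67.0% at 10 weeks and 81.8% at 7 weeks at 3 positions with identical values. The same values also stood at a position without a gene, and RefSeq places Vom2r4 on another chromosome too. Kdf1, tied to keratinocyte differentiation, had 45.8% at 10 weeks and 31.9% at 7 weeks, an increase that also stood at 2 positions. Such repeats cannot be assigned to 1 copy, and 1334 of the tested regions belonged to 631 sets of them.

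**Figure D3:**
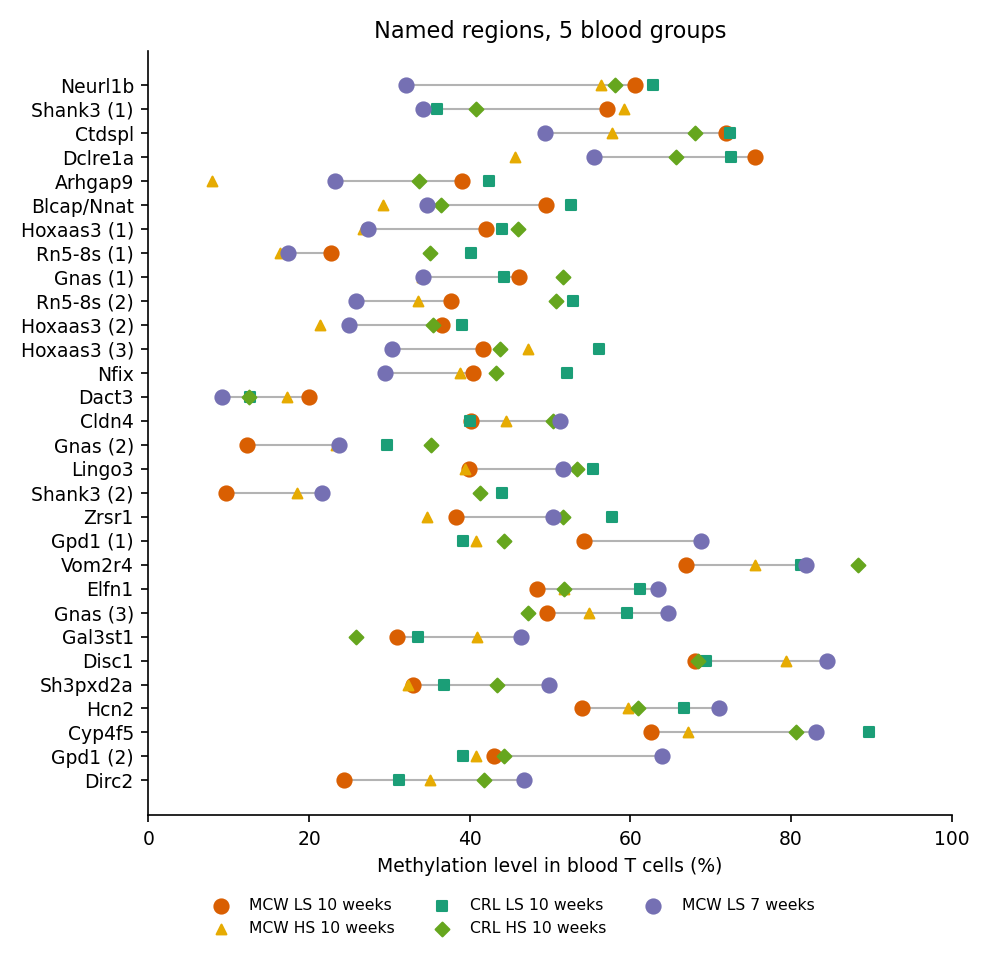
Methylation level in percent of the named regions with a gene that could be matched in every blood group, ordered by difference; circles are MCW LS at 10 and 7 weeks, joined by a line, and other symbols are the other 10-week groups. Neurl1b shows all 10-week groups far above the 7-week level, from 56.3% to 62.8% against 32.1%, while for regions such as Arhgap9 and Dclre1a the MCW HS value lies beyond the 7-week level.

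Hoxaas3, a noncoding RNA gene antisense to the Hoxa cluster, had the most called regions of any gene. All 20 of its regions were higher at 10 weeks, beside 46.6% of all regions, and 10 were called, beside 0.664%. The regions form 2 stretches 85795 bp apart on chromosome 4 that share nearly all their values, so that 11 regions were distinct and 5 of them called. The median level was 41.8% at 10 weeks and 29.2% at 7 weeks, with differences from 0.757 to 16.9 points in the authors' deposited table. The region with the most CpG sites, 24, had 36.5% at 10 weeks and 24.9% at 7 weeks, with q 0.0015 in the authors' deposited table. In that region MCW HS had 21.3%, CRL LS 39.0% and CRL HS 35.4%, so that MCW HS lay below the 7-week level and both CRL groups near the 10-week level. The CRL values there also matched a neighbouring region, which had 31.5% at 10 weeks and 24.0% at 7 weeks in MCW LS. The order was not the same throughout: in a called region of 6 CpG sites with 41.6% at 10 weeks and 30.3% at 7 weeks, MCW HS had 47.3%, CRL LS 56.1% and CRL HS 43.8%, all above the 10-week level. These values also matched a neighbouring region that was not called, with 44.3% at 10 weeks and 37.0% at 7 weeks in MCW LS. They thus do not stand for the region of 6 CpG sites alone, and CRL HS lay below the 10-week level of its neighbour. Kidney T cells were almost unmethylated in the matched Hoxaas3 regions, with medians of 1.78% at 10 weeks and 1.83% at 7 weeks.

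Regions named for ribosomal RNA genes had small differences of 1 sign in the deposited comparison of ages. The ribosomal RNA genes (Rn45s, Rn5-8s and Rn28s) are repeated in many copies and encode the RNA core of ribosomes; the set was chosen after its values were seen. All 111 regions were higher at 10 weeks, beside 46.6% of all regions. Of these, 72 had an adjusted p under 0.05, beside 5.94% of all regions that were higher by that p, and 2 were called, beside 0.375%. The median level was 20.4% at 10 weeks and 16.2% at 7 weeks, and the median difference in the authors' deposited table was 5.00 points, from 1.08 to 12.4. In the tissue tables, where the same libraries were divided into regions anew, 95 of 110 matched regions were higher at 10 weeks. The medians there were 20.7% at 10 weeks and 17.1% at 7 weeks. Of the called pair, a region of 54 CpG sites had 22.7% at 10 weeks and 17.4% at 7 weeks, a gap well under the difference of 12.4 points that the authors' deposited table gives. Copies of these genes cannot be told apart by reads, and their regions are not independent.

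In 99 of these regions matched in every blood group, the median was 20.3% in MCW LS at 10 weeks, 19.3% in MCW HS, 24.7% in CRL LS, 23.9% in CRL HS and 16.1% in MCW LS at 7 weeks. MCW HS exceeded the 7-week level in 74 of the 99 regions, CRL LS in 87 and CRL HS in 89. Many of the 99 regions shared a match with others, so that values of the MCW HS and CRL groups repeat. These counts are thus not counts of separate regions in those groups. All other 10-week groups thus had a median above that of the 7-week group, and the ranges of the regions overlapped widely. Near one-signed differences of these genes were also found in some comparisons of blood groups of the same age. In the deposited table of CRL HS and MCW HS, 142 of 143 regions were lower in MCW HS, with medians of 19.2% in MCW HS and 26.6% in CRL HS. In the tables that share the 10-week MCW LS libraries with the comparison of ages, MCW LS was higher than MCW HS in 202 of 203 regions and lower than CRL LS in 155 of 170. Between the CRL groups the signs were mixed, with CRL LS higher in 136 of 236 regions and lower in 100. Over all regions, 47.4% were higher in MCW LS than in MCW HS and 38.5% higher in MCW LS than in CRL LS. The shares were 40.0% for MCW HS over CRL HS and 48.9% for CRL LS over CRL HS. In kidney T cells, 96 of 105 matched regions were higher at 10 weeks, with medians of 10.9% at 10 weeks and 9.73% at 7 weeks. Over all kidney regions, 29.3% were higher at 10 weeks.

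**Figure D4:**
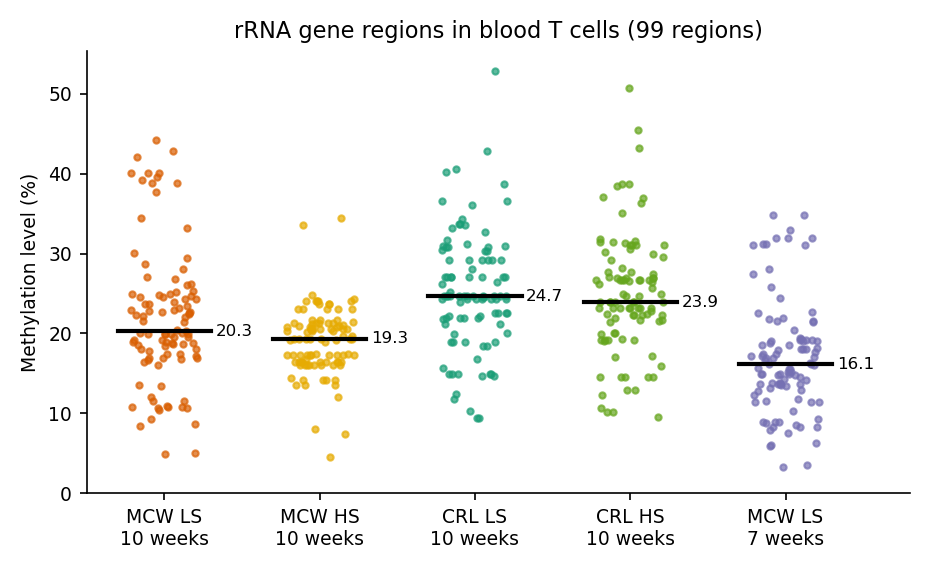
Methylation level in percent of 99 regions named for ribosomal RNA genes in 5 blood groups. Each point is a region of the comparison of ages and black bars are medians. Values of the MCW HS and CRL groups repeat where regions shared a match. The medians are 20.3%, 19.3%, 24.7% and 23.9% in the 10-week groups, left to right, and 16.1% in MCW LS at 7 weeks, with overlapping ranges.

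Imprinted genes held several called regions, in both directions. Of 61 listed genes 36 had a tested region, and 4 were called: Gnas, Nnat and Blcap, which share a region, and Zrsr1, against 1.33% of all genes. By region, 5 of 114 were called (4.39%), beside 0.664% of all regions. Of the 5, 4 had a mean level between 40% and 60%, where 3.13% of all regions were called, and 1 between 5% and 20%, where 0.665% were. Imprinted regions were not counted by level, so that their share called within each range is not given. Whether level accounts for their share was not tested. The median level of imprinted regions was 29.0% at 10 weeks and 27.6% at 7 weeks, and their median difference in the authors' deposited table was 0.0641 points. The promoter region shared by Nnat and Blcap had 49.5% at 10 weeks, 29.2% in MCW HS, 52.6% in CRL LS, 36.4% in CRL HS and 34.6% at 7 weeks, so that both LS groups of 10 weeks lay above the HS groups and the 7-week group. A Zrsr1 promoter region had 38.3% at 10 weeks, 34.7% in MCW HS, 57.7% in CRL LS, 51.6% in CRL HS and 50.4% at 7 weeks, with only the MCW groups of 10 weeks below 50%. Just outside the rule, an Igf2r promoter region of 36 CpG sites had 37.6% at 10 weeks and 27.7% at 7 weeks, a difference of 9.86 points and a q of 9e-08 in the authors' deposited table. A neighbouring Igf2r promoter region had the opposite sign, with 34.6% at 10 weeks and 43.7% at 7 weeks, a difference of -9.14 points in the authors' deposited table. A gene body region of Dlk1, a membrane ligand related to those of Notch, was nearest to the limit, with 36.0% at 10 weeks and 45.9% at 7 weeks and a difference of -9.95 points in the authors' deposited table. Igf2r, an imprinted receptor that clears insulin-like growth factor 2, and Dlk1 were named after their values were seen.

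Gnas, which encodes the stimulatory G protein alpha subunit from a locus with several imprinted promoters, had 15 tested regions over 46.6 kb, 9 higher and 6 lower at 10 weeks. A region of 16 CpG sites at chr3:178426626-178426771 (rn5) had 46.2% at 10 weeks and 34.1% at 7 weeks. The next called region, 12.1 kb on at chr3:178438693-178438737, had 49.6% at 10 weeks and 64.7% at 7 weeks. The last, 33.5 kb further at chr3:178472211-178472304, had 12.3% at 10 weeks and 23.7% at 7 weeks in 14 CpG sites. The called regions of the locus thus differed in sign, and its median was 35.4% at 10 weeks and 34.1% at 7 weeks. The other groups lay at 34.1% in MCW HS, 44.2% in CRL LS and 51.7% in CRL HS at the first of these regions, so that only MCW HS was near the 7-week level. At the second they lay at 54.9% in MCW HS, 59.5% in CRL LS and 47.3% in CRL HS, all below the 7-week level. At the last they lay at 23.3% in MCW HS, 29.7% in CRL LS and 35.2% in CRL HS, near or above the 7-week level. The CRL values there also matched a neighbouring region, which had 33.9% at 10 weeks and 36.4% at 7 weeks in MCW LS. They thus do not stand for the last region alone. Kidney T cells were lower at 10 weeks in all 3, unlike blood in the first. Kidney had 10.5% at 10 weeks and 27.5% at 7 weeks in the first, 25.6% at 10 weeks and 37.2% at 7 weeks in the second, and 12.5% at 10 weeks and 24.0% at 7 weeks in the last. The kidney values of the last also matched neighbouring regions, with 35.4% and 33.9% in blood MCW LS at 10 weeks.

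**Figure D5:**
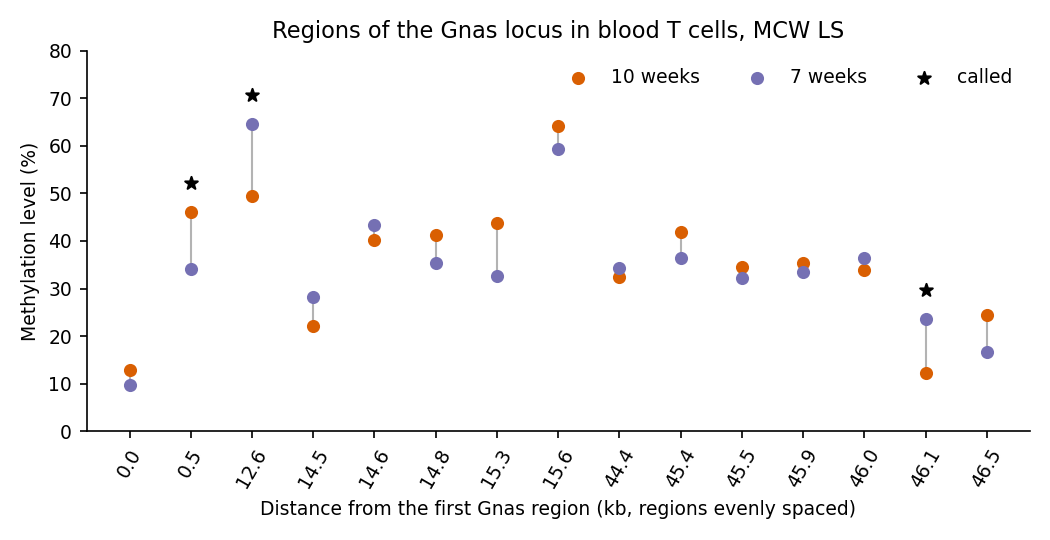
Methylation level in percent at 10 weeks (orange) and 7 weeks (purple) for the 15 regions of the Gnas locus, placed in order and labelled by distance in kb from the first; stars mark called regions. The first starred region is higher at 10 weeks (46.2% against 34.1%) and the other 2 are lower, at 49.6% against 64.7% and 12.3% against 23.7%.

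The other 16 gene lists had no called gene. Among homeobox developmental regulators, 103 of 136 genes were tested in 457 regions and 0 were called. By adjusted p alone, 35 regions were higher and 21 lower, beside 5.94% of all regions higher and 3.56% lower, and the median difference in the authors' deposited table was 0.637 points. Genes of published age methylation clocks were tested for 25 of 39 members in 70 regions and 0 were called, with 6 regions higher and 1 lower by adjusted p. The growth, puberty and sex hormone axis was tested for 27 of 44 genes in 75 regions, with 7 regions higher and 2 lower by adjusted p and 0 called. With 1.33% of all genes called, lists of this size would hold few calls at that rate, and the count of 0 speaks of this rule only. The lists of naive and memory differentiation (16 genes tested), trafficking and tissue residency (10), activation and exhaustion (10), cytokines and cytotoxic effectors (5) and helper lineage transcription factors (11) had 0 called genes, as did the DNA methylation machinery (9).

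Levels of enzymes of methylation could be described only in part. The gene body region of Dnmt1, the maintenance methyltransferase, had 83.2% at 10 weeks and 87.1% at 7 weeks. Dnmt3a, a de novo methyltransferase, had gene body regions of 83.7% and 78.5% at 10 weeks, against 85.9% and 78.1% at 7 weeks, and a promoter region of 0.114% at 10 weeks and 2.38% at 7 weeks. The highest of 3 Dnmt3b promoter regions had 1.91% at 10 weeks and 0.429% at 7 weeks. None of these regions was called, and Tet1, Tet2, Tet3, Ifng, Il17a, Foxp3, Cd4 and Cd3e had 0 tested regions each.

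The label of the cells could be checked against few markers. Of 9 T cell defining genes, Cd247, Cd2 and Zap70 had regions, all in gene bodies, and the Cd2 regions were shared with Igsf3. Cd247, the zeta chain of the T cell receptor complex, had 18.4% and 14.3% at 10 weeks, against 15.9% and 15.7% at 7 weeks. Zap70, a kinase of T cell receptor signalling, had 66.2% and 67.6% at 10 weeks, against 61.4% and 65.7% at 7 weeks. Itgam, a myeloid integrin, had 76.9% and 92.4% at 10 weeks, against 77.5% and 94.0% at 7 weeks. The promoter regions of Cd8a, the coreceptor of cytotoxic T cells, had 10.6% at both ages in 1 and 4.97% at 10 weeks against 7.52% at 7 weeks in the other. None of these regions was called. Cd3d, Cd3g, Cd5, Lck and Lat, the B cell genes Cd79a, Cd79b and Ms4a1, and the myeloid genes Csf1r, Mpo and Spi1 had 0 tested regions. The whole T cell list (15 genes tested) and the marker lists of endothelium and stroma (18), kidney epithelium (21), red cells and platelets (3), natural killer cells (3), myeloid cells (9) and B cells (6) had 0 called genes. Median differences of these lists in the authors' deposited table lay between -1.10 and 0.712 points, and the part of cell composition in the called differences was not tested.

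Regions without a gene gave the largest differences of the table. The largest increase, at chr17:57882398-57882509, had 51.4% at 10 weeks and 18.5% at 7 weeks in 5 CpG sites. A region of 19 CpG sites at chr1:151976015-151976475 had 38.9% at 10 weeks and 15.6% at 7 weeks, with q 1.6e-06 in the authors' deposited table. It belonged to the group of neighbouring calls with the most tested regions, spanning 9922 bp from chr1:151966554, in which 4 regions were called and 16 of 18 tested were higher. Another increase, at chr3:96412193-96412228, had 48.12% at 10 weeks and 29.99% at 7 weeks.

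The largest decreases without a gene set the MCW groups of 10 weeks apart. At chr1:61419400-61419415 the level was 53.4% in MCW LS at 10 weeks, 56.2% in MCW HS, 86.5% in CRL LS, 75.5% in CRL HS and 82.5% in MCW LS at 7 weeks. At chr8:4308765-4308953, in 15 CpG sites, it was 44.3% in MCW LS at 10 weeks, 32.8% in MCW HS, 77.4% in CRL LS, 71.6% in CRL HS and 71.5% at 7 weeks. In both regions the MCW groups of 10 weeks lay well below the CRL groups of the same age and the 7-week group. Kidney T cells were lower at 10 weeks too, with 33.7% at 10 weeks and 65.3% at 7 weeks in the first region, and 16.8% at 10 weeks and 54.8% at 7 weeks in the second. The Cyp4f5 region showed a like order, with 62.6% in MCW LS at 10 weeks, 67.2% in MCW HS, 89.6% in CRL LS, 80.6% in CRL HS and 83.1% at 7 weeks. Another decrease without a gene, at chr2:116640934-116641097, had 47.1% at 10 weeks and 67.4% at 7 weeks.

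Most called regions, 178 of 218, had no called neighbour within 10 kb. The other 40 formed 15 groups, of which 3, in Hoxaas3 and Vom2r4, hold 12 regions that repeat values of other positions. Of the groups, 10 were higher throughout, 4 lower throughout and 1, in Shank3, mixed. On chromosome 6, all 8 tested regions from 39264639 to 39265543 were higher, 3 of them called. On chromosome 2, all 5 tested regions from 180905956 to 180916303 were lower, 3 of them called. Neighbouring regions share fragments and reads in part, so that they are not independent.

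The other 10-week blood groups did not all lie on the 10-week side of the called regions. Their levels come from tables that hold no library of either age group compared here. Of the regions called higher, with repeats counted once, MCW HS lay nearer the 10-week level in 26 of 78 matched regions, CRL LS in 40 of 75 and CRL HS in 40 of 75. Where at least 50% of each region had to be shared, these counts were 14 of 38 for MCW HS, 17 of 39 for CRL LS and 19 of 39 for CRL HS, so that the CRL groups no longer lay mostly on the 10-week side. Of those called lower, MCW HS lay nearer the 10-week level in 47 of 62, CRL LS in 24 of 63 and CRL HS in 34 of 63, and under the stricter overlap in 31 of 38, 14 of 42 and 21 of 42. Over all tested regions these shares were 48.6%, 49.6% and 48.5% for MCW HS, CRL LS and CRL HS. The MCW HS median lay nearer the 7-week one in the first set and nearer the 10-week one in the second, with 39.6% against 50.0% at 10 weeks and 34.2% at 7 weeks in the regions called higher, and 46.7% against 43.8% at 10 weeks and 60.6% at 7 weeks in those called lower. All 3 other groups lay nearer the 10-week level in 11 of 56 regions called higher and in 9 of 48 called lower, and under the stricter overlap in 2 of 19 and in 5 of 24. The regions were chosen for a gap between the MCW LS groups, so that these counts are a description.

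The same ages in kidney T cells differed mainly by lower levels at 10 weeks. In kidney 1745 of 48640 regions were called (3.59%), 100 higher (0.206%) and 1645 lower (3.38%), and the mean level was 14.3% at 10 weeks and 15.6% at 7 weeks. Of the regions called lower in blood, 47 of 56 matched in kidney were lower there too, and 25 were called lower, with kidney medians of 19.2% at 10 weeks and 32.3% at 7 weeks. Of those called higher in blood, 22 of 75 were higher in kidney and 4 were called higher, with kidney medians of 14.4% at 10 weeks and 17.6% at 7 weeks. Over all 14676 matched regions 36.0% were higher and 63.8% lower in kidney, with 50 called higher and 752 called lower. Kidney medians over all matched regions were 1.63% at 10 weeks and 1.77% at 7 weeks. Most of them thus could not be lower by 10 points, unlike the regions called in blood, so that these shares are not of like levels. Blood and kidney libraries carry the same pool numbers in the labels, and the difference between the tissues was not tested. Where the blood libraries themselves were divided into regions anew, in the tables that compare tissues, 80 of 82 regions called higher and 57 of 59 called lower kept their direction. The exceptions were Arhgap9 and the first Dact3 region among those called higher, and the Nfix region that was called lower and a Vom2r30 region among those called lower. Since the libraries are the same, these counts are no independent support for the calls. They count direction alone, and some gaps were much smaller there, as in Ctdspl, Zfpm1 and Hcn2. Kdf1 had 38.9% at 10 weeks and 34.2% at 7 weeks there. Other gaps held, as in Neurl1b with 63.6% at 10 weeks and 27.2% at 7 weeks. Some neighbouring regions, as in Hoxaas3, also shared a match.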

How the data were processed

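Reduced representation bisulfite libraries were prepared by a published protocol, per the labels' protocols, and sequenced as paired ends. Per the submitters' processing notes, positions are in rn5. Which aligner and region caller served is not given in the sources used here. Each table that the authors deposited lists regions with at least 5 CpG sites, with a level per group as a fraction, per the file headers, shown as percent in the text, a difference, CpG number, and p-value and q-value columns. The deposited CpG numbers are counts of sites, not of reads. A check showed that Benjamini-Hochberg correction of the Mann-Whitney column over all rows gives the adjusted column. Of the 15 deposited tables, the analysis used 8.

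No table holds a value per pool, so no model was fitted. The unit of the authors' test is not stated, so the p-values speak of these pools only. Variation between pools or between rats was not tested. Regions were matched between tables at 1 shared bp or more, by the longest overlap, or, as an alternative, at 50% or more of each region. The called regions named are the 10 largest increases and decreases with a gene, the 5 with a gene and the most CpG sites each way, genes with 2 or more calls, members of 18 gene lists, and the 3 largest each way without a gene; fixed genes were added. Members, lists and rules were chosen with earlier results of these data known. Of 95 called genes, 90 symbols were current in RefSeq (GRCr8) and 2 matched a synonym. Analyses used pandas 2.3.3, numpy 2.4.6 and scipy 1.17.1.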

Additional observations from a re-analysis of the deposited data

How the results depend on the processing

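The number of called regions depended on the rule. Against 218 called (123 higher, 95 lower), the authors' q-value left 12 (9 higher, 3 lower), an adjusted p under 0.01 left 142 (81 higher, 61 lower), a minimum of 20 points left 16 (8 higher, 8 lower), and a minimum of 10 CpG sites left 37 (20 higher, 17 lower). Without a minimum difference there were 5404 (1952 higher, 1168 lower, the rest equal). Adjusting p again over regions with at least 10% methylation in 1 age, an alternative chosen after seeing the data, left 135 (76 higher, 59 lower), because regions with almost no methylation and small p-values then no longer enter the adjustment. By class, the q-value left 1 of 38 promoter, 4 of 69 gene body and 7 of 111 intergenic regions, and 10 CpG sites left 6, 12 and 19 of them. The difference of the deposited levels gave 215, counting repeats once 205 and leaving out rRNA gene regions 216, the last pair also chosen after seeing the data. The median difference over regions with at least 10% was -0.0856 points. Of the 59 named regions, 5 passed the q-value. Where the same libraries were divided into regions anew, Arhgap9, 1 Dact3 region and 1 Nfix region reversed. Gaps of some other named regions, such as those of Ctdspl and Zfpm1, were much smaller there.

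No paired analysis was possible because the tables hold no value per pool, and for the same reason no replicate was left out. Read depth is unknown, and most calls rest on 5 CpG sites.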
